A study of Mus musculus with 4 samples.

Results

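The genes followed here were 10 of the 32286 features counted in the series: the stearoyl-CoA desaturases *Scd1*, *Scd2* and *Scd3*, the elongases *Elovl1*, *Elovl3*, *Elovl5*, *Elovl6* and *Elovl7*, and the polyunsaturated fatty acid desaturases *Fads1* and *Fads2*. They were chosen by name from the symbols in the feature lists, with earlier results of these data known, and all 10 were counted. The question was which isoform each compartment of the skin used: sebaceous gland, fat or hair follicle. The 4 capture areas, called slices 1 to 4 here, were measured by Visium spatial transcriptomics, which counts unique molecular identifiers (UMIs, one per captured molecule) on a grid of spots that each hold several cells or parts of cells. Per the series' description, each slice carried a dorsal skin section from each of the same 3 Krox20-CreERT; R26-tdTomato mice, collected at postnatal day 38 after 4-hydroxytamoxifen at postnatal day 2, so the 4 slices are technical replicates and every p-value below measures the spread between sections of those mice. A section with a distorted structure was left out of the study's own analysis, and whether its spots are among those counted here was not tested. The transgene makes Cre active in cells that express *Krox20* at the time of induction and switches on the tdTomato reporter there. All mice carried both alleles and the induction, and no other genotype or untreated group was compared.

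Desaturases put double bonds into acyl chains and elongases add carbons to them. Scd enzymes make the main monounsaturated fatty acids of sebum and storage fat, Elovl6 lengthens palmitate towards stearate, Elovl5 works on polyunsaturated and monounsaturated chains, Elovl1, Elovl3 and Elovl7 act on saturated and monounsaturated long and very long chains, and Fads1 and Fads2 are the delta-5 and delta-6 desaturases. In skin these lipids go into sebum, into the ceramides of the epidermal barrier and into the triglyceride of dermal fat, and loss of *Scd1* in mice is known to shrink the sebaceous glands.

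Spots were sorted into 9 compartments by marker genes of each tissue, none of which was a member. Of 6411 spots kept, 4461 (69.6%) were assigned: 162 to the sebaceous gland (gland), 442 to the upper follicle, 382 to the epidermis, 425 to fibroblast-rich dermis (dermis), 263 to dermal fat (adipose), 821 to skeletal muscle (muscle), 726 to the outer root sheath, 845 to the inner root sheath and 395 to the hair matrix and shaft. Each compartment is a range of a score, not a cell type: 6 of the gland spots, 17 of the adipose spots and 32 of the upper follicle spots lay within 0.05 of the score of 0.5 that assigned them. Levels are in CPM, the UMIs of a gene per 1000000 UMIs of a compartment in a slice, and gland sums held 346302 to 445468 UMIs per slice. The slices held 19393026 to 26910422 UMIs. The fat hormone *Adipoq* was at 250 ± 26.1 CPM (SD, n = 4 slices) in adipose spots and at 46.0 CPM or less in the others. The sebaceous wax synthase *Awat1* was at 177 ± 53.5 CPM in gland spots and at 20.9 CPM or less elsewhere. *Adipoq* and *Awat1* are among the markers that assigned the spots, so their peaks are not independent of that choice. *Ucp1* of brown fat was at 0 in adipose spots, but the 4 brown fat markers that include it summed to 63.4 to 93.2 CPM per slice there. Their sum was 439 to 644 CPM in muscle and 8.98 to 20.2 CPM in the gland. Not every marker was highest in its own compartment. An adipose marker reached 206% of its adipose level in muscle, where the median of that list was 16.6%. In the inner root sheath an epidermis marker reached 181% of its own level (list median 0.675%) and an outer root sheath marker 170% (list median 23.5%). A gland marker reached 88.2% of its gland level in the outer root sheath, where the median of that list was 4.54%. The highest gland marker was at 38.6% in the epidermis and 37.1% in the dermis. The compartments were not pure. Summed over their 8 markers, gland genes reached 2927 to 3314 CPM per slice in gland spots, 798 to 914 CPM in the upper follicle, 595 to 675 CPM in the dermis, 525 to 579 CPM in the epidermis and 485 to 554 CPM in adipose spots. In bulk sums of this kind, fewer cells of a type and less RNA per cell cannot be told apart.

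*Scd1*, *Scd3*, *Elovl3*, *Elovl5* and *Elovl6* were highest in the gland, *Scd2* in the inner root sheath and hair matrix, *Elovl1* in the epidermis and *Elovl7* in the outer root sheath. *Fads1* and *Fads2* were low everywhere. Together the 10 genes made up 9426 ± 46.6 CPM of the gland's UMIs (0.943%), 2383 ± 121 CPM in the epidermis, 2333 ± 154 CPM in the upper follicle, 1732 ± 190 CPM in adipose spots and 918 ± 79.1 CPM in muscle. Gland spots held 1.68% of all UMIs but 29.8% of those of *Scd3*, 24.3% of *Elovl6*, 17.7% of *Scd1* and 16.3% of *Elovl5*.

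**Figure D1:**
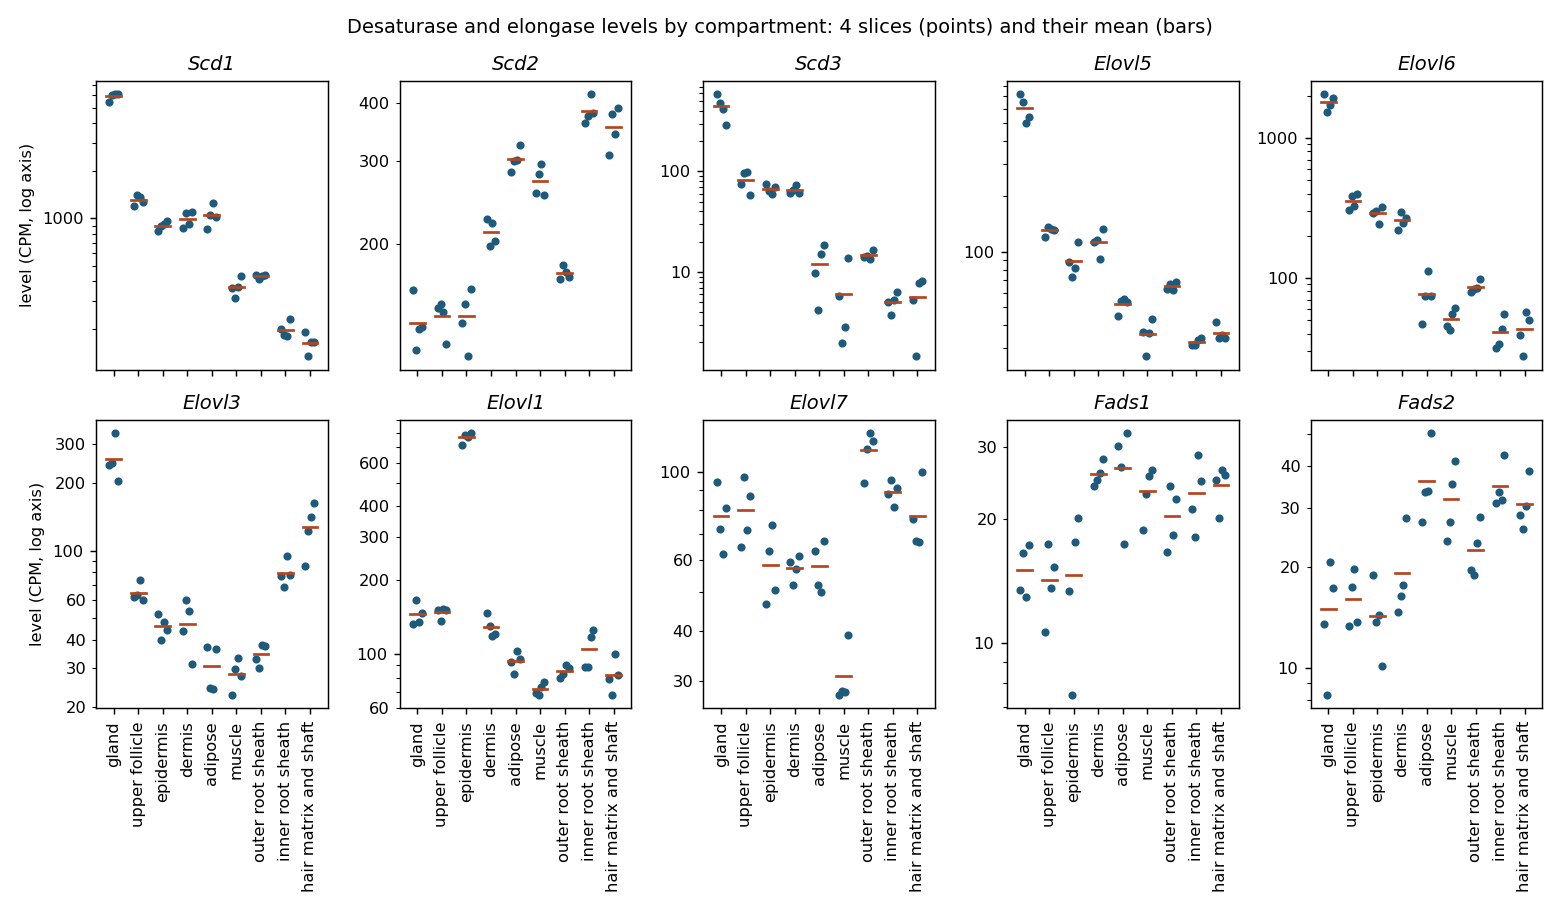
Level of each gene (CPM, log axis, scaled separately in each panel) in the 9 compartments, with 1 point per slice and a bar at the mean of the 4 slices. *Scd1*, *Scd3*, *Elovl5*, *Elovl6* and *Elovl3* stand highest in gland spots, *Scd2* in the inner root sheath and hair matrix, and *Elovl1* in the epidermis.

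*Scd1*, the delta-9 desaturase that makes oleate and palmitoleate, was the most abundant member. In gland spots it stood at 5437, 6057, 6108 and 6084 CPM in slices 1 to 4, and in adipose spots at 858, 1049, 1242 and 1022 CPM. Every gland value lay above every adipose value, and slice 1 was the lowest in both. The fitted difference was 5.94-fold (log2 2.57, SE 0.11, adjusted p = 1.73e-23 in edgeR's quasi-likelihood test, 4 of 4 slices higher). In the order of levels adipose came after the gland and the upper follicle at 1304 ± 96.5 CPM, and ahead of the dermis at 993 ± 117 CPM and the epidermis at 900 ± 54.7 CPM. Neighbours among these overlapped in their slice values, whereas the gland above and the outer root sheath at 431 ± 11.0 CPM below stood apart. The lowest levels were 198 ± 22.6 CPM in the inner root sheath and 163 ± 23.5 CPM in the hair matrix and shaft.

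*Scd3* followed the gland more narrowly. It is a close copy of *Scd1* known to be expressed in skin and Harderian gland. Gland spots gave 588, 477, 419 and 289 CPM in slices 1 to 4, and adipose spots gave 9.75, 4.20, 15.3 and 18.7 CPM. The groups were far apart, with slice 4 lowest in the gland and highest in fat. The fold was 40.1 (log2 5.32, SE 0.26, adjusted p = 6.13e-22 in edgeR's quasi-likelihood test), from 48 UMIs in all in adipose spots. Upper follicle, epidermis and dermis overlapped at 81.9 ± 19.1, 66.9 ± 6.46 and 64.8 ± 5.50 CPM, and the remaining compartments were at 14.7 CPM or less. Spots were also thinned to 5500 UMIs, which left out the shallower ones, 37 of 162 gland spots and 36 of 821 muscle spots. Of the remaining gland spots 68.8% ± 11.0 held a *Scd3* UMI against 2.66% ± 1.05 of muscle spots, taken as the background of free RNA. Unthinned, over all spots, these were 82.3% and 7.08%, at median depths of 8418 and 14271 UMIs.

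*Elovl6*, the elongase of saturated C16 chains, gave 2054, 1541, 1713 and 1935 CPM in gland spots and 46.8, 73.9, 111 and 73.9 CPM in adipose spots. All gland values exceeded all adipose values, by 24.9-fold in the fit (log2 4.64, SE 0.17, adjusted p = 4.43e-27 in edgeR's quasi-likelihood test). *Elovl5* gave 721, 653, 502 and 543 CPM in the gland and 44.8, 53.7, 55.6 and 53.2 CPM in fat, also without overlap. Its fold was 12.2 (log2 3.61, SE 0.13, adjusted p = 2.20e-27 by the same test). *Elovl3*, an elongase of saturated and monounsaturated very long chains known from sebaceous gland and brown fat, gave 242, 248, 336 and 205 CPM in the gland and 37.0, 24.4, 24.0 and 36.4 CPM in fat, a fold of 8.87 (log2 3.15, SE 0.19, adjusted p = 7.99e-19). For *Elovl6*, *Elovl5* and *Scd3* the upper follicle came next, at 19.5%, 21.6% and 18.5% of the gland's level, but for *Elovl3* the hair matrix and shaft did, at 85.4, 123, 141 and 164 CPM. The hair matrix and shaft was uneven between slices, with 177, 96, 73 and 49 spots in slices 1 to 4.

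*Scd2*, the Scd isoform that is widespread outside the liver, ran the other way. In the inner root sheath it gave 362, 374, 418 and 381 CPM, in the hair matrix and shaft 309.8, 379, 343 and 389 CPM, in adipose spots 286, 301, 303 and 325 CPM and in gland spots 159, 119, 132 and 133 CPM. The inner root sheath overlapped the hair matrix, the hair matrix overlapped fat, and fat overlapped muscle at 272 ± 19.8 CPM. All 4 lay above every gland value. Upper follicle, epidermis and gland shared the bottom of the order at 140.2, 140.1 and 136 CPM with overlapping slices. *Scd2* was lower in the gland than in fat (log2 -1.09, SE 0.12, adjusted p = 2.19e-10 in edgeR's quasi-likelihood test, lower in 4 of 4 slices). Inner root sheath genes moved with this difference: their 7 markers summed to 26328 to 33885 CPM per slice in adipose spots and to 11193 to 17009 CPM in gland spots. Their part in the result was not tested.

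In the comparison of gland with fat, 5 of the 10 members were called higher (adjusted p under 0.05 and at least 2-fold), against 8.39% of the 11150 genes tested, and 2 were called lower, against 5.25%. The second of these was *Fads2*, at 13.5, 8.27, 20.7 and 17.3 CPM in the gland and 27.3, 33.6, 33.8 and 50.2 CPM in fat (log2 -1.21, SE 0.31, adjusted p = 0.00242 in edgeR's quasi-likelihood test), from 23 UMIs in all gland spots. The slices did not overlap, but with spots thinned to 5500 UMIs and shallower ones left out the call was lost (log2 -0.82, adjusted p = 0.294 by the same test). The median log2 fold of the members was 1.63 and that of all genes -0.02. *Elovl1*, *Elovl7* and *Fads1* differed by less than 2-fold, at log2 0.70, 0.48 and -0.79. Each slice was also cut by position into 3 strips. In every strip the gland exceeded fat for *Scd1*, at 5273 to 6438 against 924 to 1201 CPM, and for *Elovl6*, at 1383 to 2484 against 55.1 to 95.2 CPM.

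**Figure D2:**
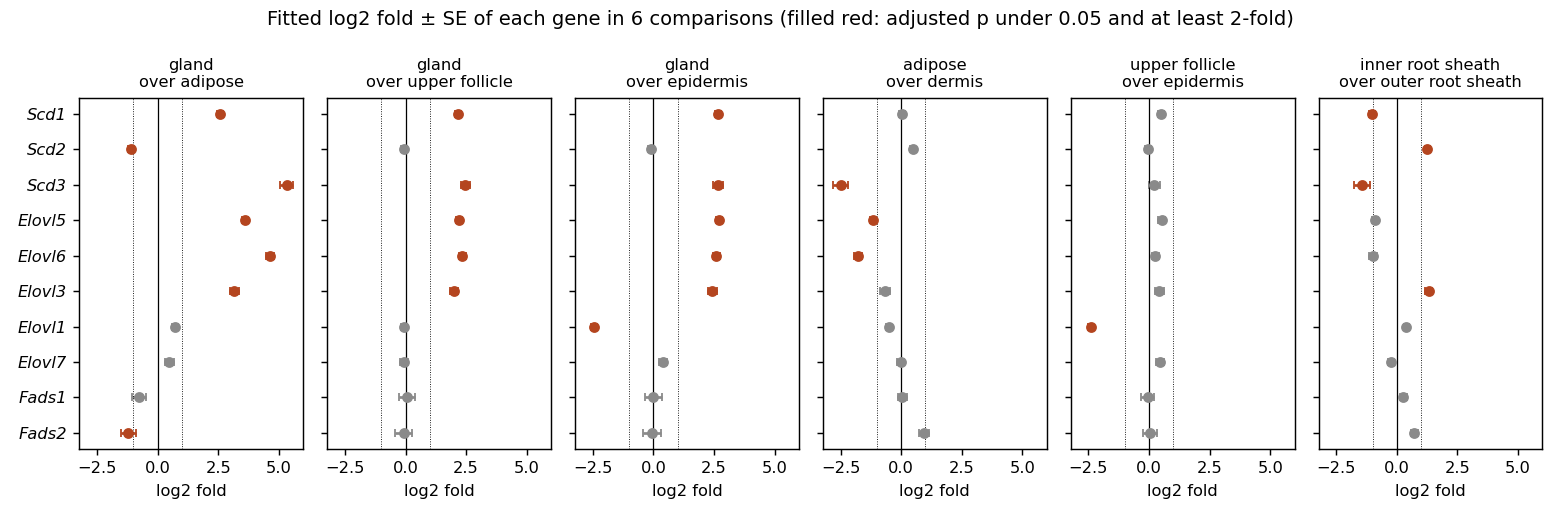
Fitted log2 fold (horizontal axis) of each gene in the 6 comparisons, with its standard error. Red points passed an adjusted p of 0.05 and a 2-fold difference (dotted lines), and the same 5 red points lie right of 2-fold in each of the 3 comparisons of the gland.

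Against the upper follicle, into which the gland opens, the same 5 genes were called higher in the gland, against 2.23% of all genes, and 0 were called lower, against 0.493%. The 3 comparisons of the gland share its 4 sums, so they are given side by side and not as separate evidence. The folds over the upper follicle were 4.49 for *Scd1*, 5.51 for *Scd3*, 5.06 for *Elovl6*, 4.60 for *Elovl5* and 3.97 for *Elovl3*, with log2 values from 1.99 to 2.46 and each higher in 4 of 4 slices. The largest adjusted p among them was 3.45e-13 in edgeR's quasi-likelihood test. The other 5 members lay between log2 -0.08 and 0.07, and the smallest adjusted p among them was 0.908. The members' median was 1.03 and that of all genes -0.01. Over the epidermis the 5 genes were again higher, against 3.64% of all genes, with folds of 5.36 to 6.59, and 1 gene was lower, against 4.17%. The members' median was 1.41 there and that of all genes -0.02.

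The gene that was lower was *Elovl1*, which elongates saturated and monounsaturated acyl chains to the very long lengths used in barrier ceramides. Epidermis spots gave 713, 781, 767 and 798 CPM and gland spots 132, 165, 135 and 147 CPM. The epidermis stood far above all others, and the gland overlapped both the upper follicle at 148 ± 7.93 CPM and the dermis at 129 ± 13.1 CPM. Gland over epidermis, the difference was log2 -2.45 (SE 0.11, adjusted p = 7.58e-23 in edgeR's quasi-likelihood test, 4 of 4 slices). Upper follicle over epidermis, it was log2 -2.41 (SE 0.10, adjusted p = 1.19e-23), and *Elovl1* was the 1 member called there, against 3.67% of genes lower in the upper follicle. None was called higher, against 2.73%. The members' median was 0.23 there and that of all genes -0.02. *Elovl1* fell off within a step: spots next to the epidermis had 202 ± 7.06 CPM, 3.78-fold less. The epidermis held 3.80% of all UMIs and 23.8% of the UMIs of *Elovl1*.

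*Scd1*, *Elovl5* and *Elovl7* were a little higher in the upper follicle than in the epidermis, by log2 0.50 (adjusted p = 6.24e-04 in edgeR's quasi-likelihood test), 0.52 (adjusted p = 0.00262) and 0.45 (adjusted p = 0.0349, higher in 3 of 4 slices). None of these reached 2-fold, and with spots grouped by Seurat clusters in place of marker scores the first 2 turned, to log2 -0.37 and -0.30. Gland genes moved with the first 2, since *Far2*, which makes the fatty alcohols of sebum waxes, was at 108 ± 7.77 CPM in upper follicle spots and 76.9 ± 6.60 CPM in epidermis spots. In upper follicle, epidermis and dermis spots whose gland score was at or below the median of all spots (75, 99 and 130 spots, a choice made after seeing the data), *Scd1* in the upper follicle was at 600, 616, 397 and 574 CPM and in the epidermis at 668, 554, 640 and 576 CPM. The ranges overlapped, and the difference was log2 -0.21 (adjusted p = 0.593). *Elovl5* and *Elovl7* kept their direction, at log2 0.39 (adjusted p = 0.582) and 0.97 (adjusted p = 0.0342).

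In these low-gland spots the gland genes among the members were lower, but not at 0. *Elovl6* was at 152 ± 24.3 CPM in the upper follicle, 208 ± 29.5 CPM in the epidermis and 77.5 ± 15.8 CPM in the dermis, against 354, 289 and 257 CPM in all spots of those compartments. *Scd3* was at 42.1 ± 12.1, 33.2 ± 8.62 and 9.60 ± 7.77 CPM. The lowest low-gland epidermis value of *Elovl6*, 168 CPM, lay above the highest of the dermis, 91.4 CPM. *Scd2* was not lower in them, with 152 ± 37.1 CPM in the upper follicle and 254 ± 43.2 CPM in the dermis, and *Elovl1* was at 838 ± 117 CPM in low-gland epidermis. Folds of the gland over low-gland upper follicle were larger than over all of it: log2 3.49 for *Scd1*, 3.45 for *Scd3*, 3.65 for *Elovl6*, 3.39 for *Elovl3* and 2.86 for *Elovl5*. The spots were chosen for low gland markers, so the larger folds are not independent of that choice. They rest on 12 to 24 upper follicle spots per slice.

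**Figure D3:**
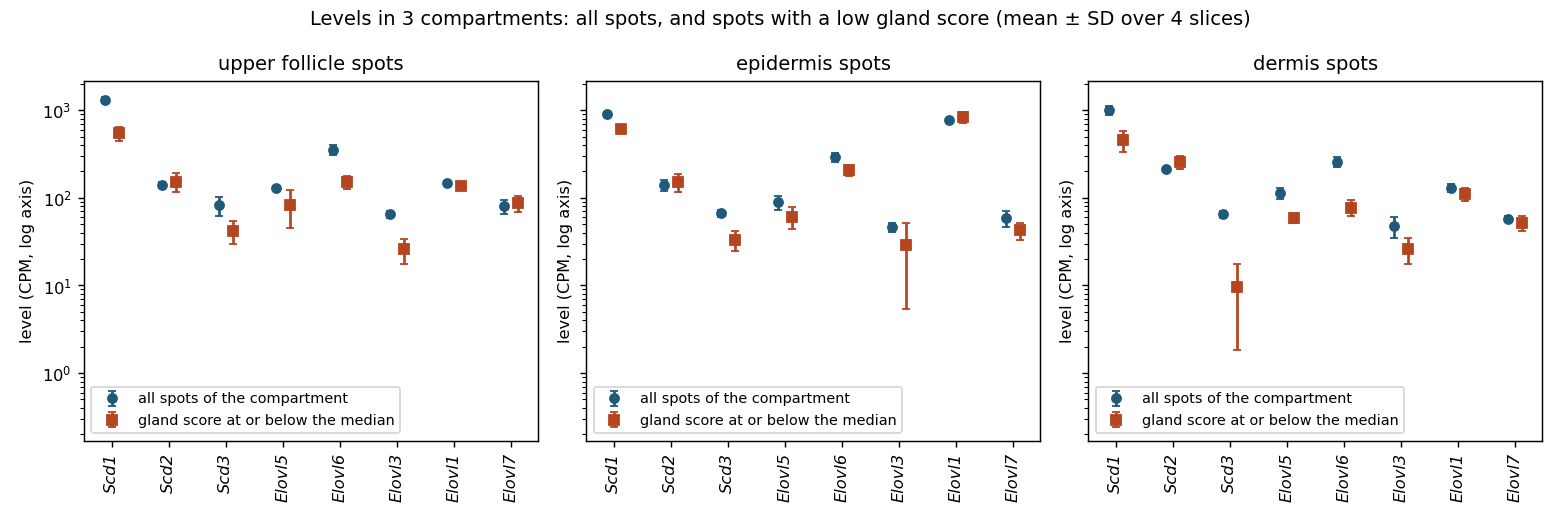
Level (CPM, log axis) of 8 genes in all spots of the upper follicle, epidermis and dermis (blue circles) and in those with a gland score at or below the median of all spots (red squares), as mean ± SD over the 4 slices. *Scd1* falls from 993 to 452 CPM in the dermis and from 1304 to 547 CPM in the upper follicle, while *Elovl1* stays high in the epidermis.

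The comparison of fat with the dermis changed with the spots used. With all dermis spots, *Scd1* was at 858, 1049, 1242 and 1022 CPM in adipose spots and at 868, 1082, 920 and 1103 CPM in dermis spots, overlapping values with a log2 difference of 0.04 (SE 0.11, adjusted p = 0.838 in edgeR's quasi-likelihood test). *Scd3*, *Elovl5* and *Elovl6* were called lower in fat (3 of 10 members against 7.03% of all genes), by log2 -2.50, -1.16 and -1.79, and 0 members were called higher, against 1.71%. The members' median was -0.27 and that of all genes 0.01. *Far2* moved the same way, at 12.9 ± 1.66 CPM in fat and 70.5 ± 16.4 CPM in the dermis. Against low-gland dermis, where *Scd1* was at 308, 397, 543 and 560 CPM, every adipose value exceeded every dermis value. *Scd1* was then the 1 member called, higher in fat by log2 1.22 (adjusted p = 3.06e-09), and the 3 lower calls were gone: log2 0.31 for *Scd3* (adjusted p = 0.826), -0.23 for *Elovl5* (adjusted p = 0.545) and -0.04 for *Elovl6* (adjusted p = 0.939). The summed gland markers were then at 270 to 344 CPM per slice in the dermis but still at 485 to 554 CPM in fat, so both sides were also limited to spots with a low gland score, 120 in fat and 130 in the dermis, a choice made after seeing the data. *Scd1* was at 819, 879, 1194 and 959 CPM in low-gland fat, above every value of low-gland dermis, and was again the 1 member called (log2 1.09, adjusted p = 1.88e-08). The summed gland markers were at 381 to 429 CPM in fat there. Of these, *Far2* was at 1.65 ± 2.00 CPM in low-gland fat and 4.04 ± 4.71 CPM in low-gland dermis. *Awat1* was at 0.551 ± 1.10 CPM in that fat and 0 in that dermis. In all adipose spots the median gland marker was at 3.29% of its gland level and the highest at 39.3%. Muscle spots also summed to 328 to 391 CPM, so the sum is not a measure of gland alone. *Elovl5*, *Elovl6* and *Scd3* were at log2 -0.75 (adjusted p = 0.0119), -0.48 (adjusted p = 0.194) and -0.90 (adjusted p = 0.556). Low-gland dermis spots differed in more than gland genes, with muscle markers at 7778 to 12534 CPM per slice against 4235 to 6275 CPM in all dermis spots. Upper follicle markers were lower in them, at 4044 to 6812 CPM against 7744 to 10505 CPM. Epidermis markers were lower too, at 1835 to 2835 CPM against 3204 to 4523 CPM. The part of these 3 lists in the result was not tested.

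*Scd1* also fell off around fat. Spots 1 step on the grid from an adipose spot had 480, 377, 615 and 535 CPM in slices 1 to 4, below the adipose values of each slice (mean ratio 2.09-fold, log2 1.07 ± 0.28, 4 of 4 slices), and spots 2 steps away had 513 ± 35.8 CPM. *Adipoq* fell from 250 to 51.2 CPM over the first step. No other member showed a drop of that size on leaving fat: *Scd2* rose slightly from 304 to 333 CPM, higher outside in 4 of 4 slices, and *Fads2* went from 36.2 ± 9.82 to 32.5 ± 4.78 CPM. Within the *Scd* family, *Scd1* made up 76.6% ± 2.43 of UMIs in fat, *Scd2* 22.6% ± 2.34 and *Scd3* 0.876% ± 0.438.

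From the gland, levels fell in 1 step from 5922 to 1251 CPM for *Scd1*, from 1811 to 311 CPM for *Elovl6*, from 605 to 122 CPM for *Elovl5*, from 443 to 77.4 CPM for *Scd3* and from 258 to 56.1 CPM for *Elovl3*. The gland marker *Far2* fell from 618 to 97.4 CPM over the same step. *Elovl3* did not go on falling, with 41.4 ± 8.05 CPM at 2 steps and 62.9 ± 7.94 CPM at 4 steps. *Scd2* rose with distance from the gland, from 136 CPM to 409.7 CPM at 5 steps. Measured from the epidermis, *Scd1* was higher 1 step away from it in any direction (2308 ± 173 CPM) than in it (900 ± 54.7 CPM), and *Far2* went from 76.9 to 219 CPM.

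**Figure D4:**
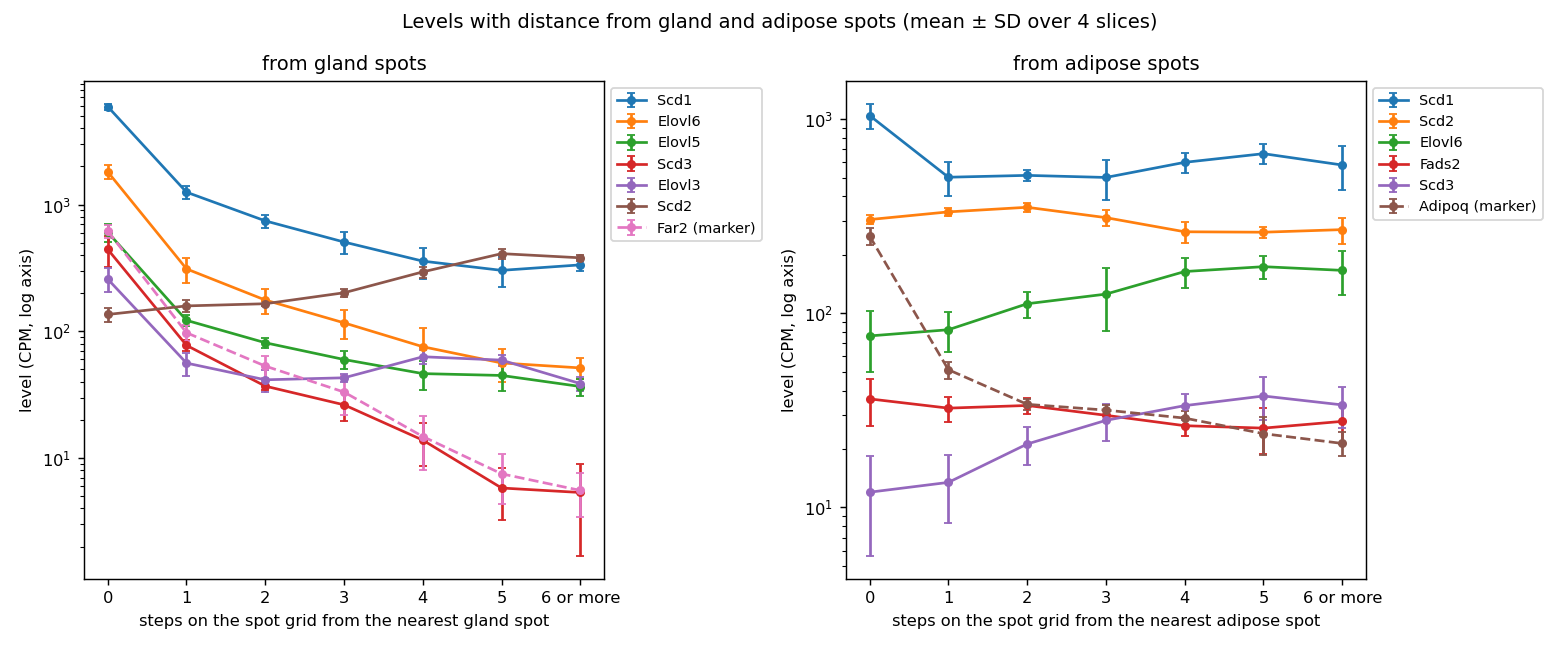
Level (CPM, log axis, mean ± SD over the 4 slices) by distance in grid steps to the closest gland spot (left) and the closest adipose spot (right), with the last point holding all spots 6 or more steps away. *Scd1* drops over the first step from both, *Elovl6* and *Scd3* from the gland alone, and *Scd2* climbs away from the gland.

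In the follicle the isoforms differed between outer and inner root sheath spots. From outer to inner root sheath *Scd2* rose by log2 1.25 (SE 0.10, adjusted p = 4.05e-15 in edgeR's quasi-likelihood test) and *Elovl3* by 1.31 (SE 0.15, adjusted p = 5.17e-10), 2 members against 3.57% of all genes called higher. *Scd1* fell by 1.02 (SE 0.11, adjusted p = 1.87e-10) and *Scd3* by 1.42 (SE 0.33, adjusted p = 4.37e-04), 2 members against 8.67% called lower. Slice values were 168, 181, 175 and 170 CPM for *Scd2* in the outer sheath against 362 to 418 CPM in the inner, and 438, 415, 432 and 439 CPM for *Scd1* against 180.1 to 229 CPM. Neither pair overlapped. *Scd1* lay close to 2-fold and was no longer called under 6 alternative settings, with log2 values of -0.76 to -0.99. *Scd3* was no longer called with spots thinned to 5500 UMIs and shallower ones left out (log2 -0.98). *Elovl5* and *Elovl6*, at -0.90 and -0.99, lay as close on the other side, and *Fads2* differed by 0.72 (adjusted p = 9.69e-05). The members' median was 0.02 and that of all genes -0.02. *Far2* went from 27.4 ± 1.38 CPM in the outer sheath to 4.16 ± 0.89 CPM in the inner. Summed upper follicle markers were at 5001 to 6918 CPM per slice in the outer sheath and 505 to 670 CPM in the inner. Dermis markers were at 6340 to 8778 CPM and 1301 to 1858 CPM. The part of gland, upper follicle and dermis genes in the falls of *Scd1* and *Scd3* was not tested.

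*Scd2* took 65.5% ± 3.26 of the *Scd* UMIs in the inner root sheath and 67.7% ± 5.25 in the hair matrix and shaft, 42.4% ± 4.66 in muscle, 28.0% ± 1.18 in the outer root sheath and 2.10% ± 0.340 in the gland. *Scd1* took the reverse, from 91.1% ± 2.34 in the gland to 31.2% ± 4.99 in the hair matrix and shaft. The share of *Scd3* was largest in the gland, at 9.51%, 7.17%, 6.30% and 4.44% in slices 1 to 4, a range that overlapped the epidermis at 6.05% ± 0.742. *Scd4* had 13 UMIs in the series. The *Scd* genes are related copies that lie together on chromosome 19. How reads that fit more than 1 copy were counted is not given in the sources used here, so small shares next to a large one are uncertain.

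**Figure D5:**
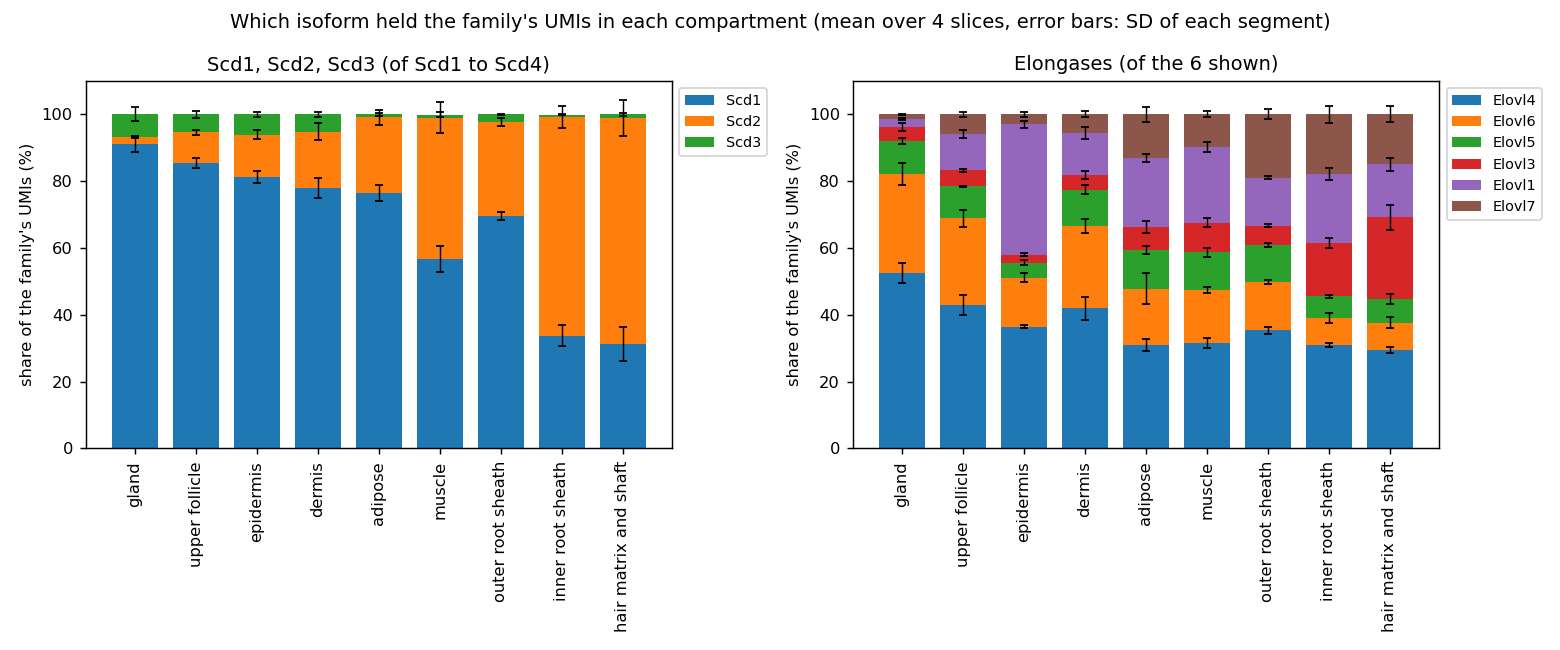
Share of UMIs (percent, mean over the 4 slices, error bars the SD of each segment) taken by each gene among *Scd1* to *Scd4* (left; *Scd4* is too small to show) and among 6 elongases (right), by compartment. *Scd1* fills 91.1% of the gland's *Scd* UMIs and *Scd2* 67.7% of those of the hair matrix and shaft, and *Elovl1* takes 39.0% of the epidermal elongase UMIs.

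Among elongases the members shared the tissue with *Elovl4*, which makes the ultra-long chains of barrier lipids and is not one of the 10. It led in the gland at 52.5% ± 2.98 of the UMIs of the 6 elongases counted (3202 ± 351 CPM), followed by *Elovl6* at 29.7% ± 3.37 and *Elovl5* at 9.87% ± 0.902. In the epidermis *Elovl1* led at 39.0% ± 0.964, with *Elovl4* at 36.4% ± 0.404. *Elovl3* had its largest share, 24.4% ± 3.76, in the hair matrix and shaft, and *Elovl7* in the outer root sheath at 19.0% ± 1.51. In fat *Elovl4* held 31.0% ± 1.88, *Elovl1* 20.8% ± 1.16 and *Elovl6* 16.8% ± 4.64. Shares add up to the whole, so a rise of 1 gene lowers the others. *Elovl2* had 1 UMI in the series.

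*Elovl7* was highest in the outer root sheath, which gave 93.8, 114, 125 and 119 CPM against 87.8, 95.4, 81.4 and 90.7 CPM in the inner root sheath, overlapping ranges with a log2 difference of -0.24 (adjusted p = 0.0701 in edgeR's quasi-likelihood test). Every neighbour in the order overlapped down to the dermis at 57.5 ± 4.01 CPM, and muscle alone stood apart at 30.8 ± 5.51 CPM. *Fads2* ran from 36.2 ± 9.82 CPM in fat and 34.8 ± 5.62 CPM in the inner root sheath to 14.3 ± 3.64 CPM in the epidermis. *Fads1*, which acts after Fads2 in making arachidonic acid, ran from 26.8 ± 6.63 CPM in fat to 14.2 ± 2.86 CPM in the upper follicle. For both, every neighbour in the order overlapped, and gland spots held 23 UMIs of each.

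Across the 36 sums of 9 compartments in 4 slices, which share slices and are given as a description, the logged levels of *Scd3* and *Elovl6* (Pearson r = 0.97), *Elovl5* and *Elovl6* (0.97), *Scd3* and *Elovl5* (0.94) and *Scd1* and *Elovl6* (0.92) went together. *Scd2* went against *Scd3* (-0.81) and with *Fads2* (0.80). The gene most like *Scd1* among all genes tested was *Ces1d* (0.99), that most like *Scd3* was *Aadac* (0.98), that most like *Elovl6* was *Fa2h* (0.98), that most like *Elovl5* was *Mgll* (0.98), and that most like *Elovl1* was *Agpat4* (0.95). *Scd2* was most like *Golga7b* (0.94), with the inner root sheath keratins *Krt73* (0.93) and *Krt25* (0.93) among its 5 closest. *Elovl3* was most like *Lpcat3* (0.93). The closest genes to *Elovl7*, *Fads1* and *Fads2* were less alike: *Myo6* (0.83), *Rrs1* (0.80) and *Dlx3* (0.86).

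The promoters of the 3 members that went together most closely are shown because their sequences can be set side by side. They are the bases before the annotated start, 5′ to 3′ on the gene's strand, from RefSeq on GRCm38.p6, with matches to the searched motifs in capitals: chr9:77917115-77917363 (plus strand) for *Elovl5*, chr3:129532136-129532354 (plus strand) for *Elovl6* and chr19:44203038-44203268 (plus strand) for *Scd3*.
Elovl5: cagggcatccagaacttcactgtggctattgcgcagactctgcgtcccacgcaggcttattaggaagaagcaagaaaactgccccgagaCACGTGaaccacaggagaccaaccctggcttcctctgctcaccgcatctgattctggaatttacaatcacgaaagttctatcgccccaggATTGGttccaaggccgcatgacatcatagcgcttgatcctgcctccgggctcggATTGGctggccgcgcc
Elovl6: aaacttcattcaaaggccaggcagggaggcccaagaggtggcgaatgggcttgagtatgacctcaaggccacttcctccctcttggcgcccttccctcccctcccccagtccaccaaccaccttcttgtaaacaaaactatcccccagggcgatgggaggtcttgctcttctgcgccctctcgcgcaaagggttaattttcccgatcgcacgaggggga
Scd3: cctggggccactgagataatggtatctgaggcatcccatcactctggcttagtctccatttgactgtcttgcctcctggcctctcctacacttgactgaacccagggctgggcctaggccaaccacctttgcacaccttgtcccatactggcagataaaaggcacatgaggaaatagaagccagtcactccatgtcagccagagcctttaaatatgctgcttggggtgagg
In the 250 bases before each start, both strands were searched for TCACNCCAC (a core of the sterol regulatory element), CCAAT, the E-box CACGTG and the PPAR response element (a direct repeat of AGGTCA with 1 base between). The matches found did not overlap each other. These occurred in 1.05%, 33.8%, 6.02% and 0.0335% of 32851 mouse promoters of that length. *Elovl5* held CACGTG 161 bases and CCAAT 71 and 17 bases before the RefSeq start. *Elovl6* and *Scd3* held none of the 4, nor did *Elovl7* and *Fads2*, and 1 of 2 *Elovl1* entries held CCAAT 35 bases before the start. In all 6 members matched 7 entries; the others are *Scd1*, *Scd2*, *Elovl3* and *Fads1*. A match is a description of letters and not of binding.

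On GRCm38 the *Scd* genes lie in a cluster on chromosome 19, with *Scd3* at 44203269 to 44244016, *Scd2* at 44293674 to 44306864, *Scd4* at 44333092 to 44346743 and *Scd1* on the other strand at 44394455 to 44407879. *Elovl3* (46131897 to 46135694), *Fads2* (10062765 to 10101746, minus strand) and *Fads1* (10182888 to 10196877) are on the same chromosome. *Elovl1* lies on chromosome 4 at 118428093 to 118432953, *Elovl5* on chromosome 9 at 77917364 to 77984519, *Elovl6* on chromosome 3 at 129532355 to 129638495 and *Elovl7* on chromosome 13 at 108214404 to 108285683. Neighbours within the cluster were not alike: *Scd3* was highest in the gland and *Scd2*, next to it, was among its lowest there, with the upper follicle and epidermis. On the same strand the annotation has *Gm43072* overlapping *Elovl6*, *Mir5114* overlapping *Scd2* and *Mir6993* overlapping *Fads1*. On the opposite strand *Cdc20*, *Pitx3* and *AC125101.1* overlap *Elovl1*, *Elovl3* and *Scd3*, *Gm35986* overlaps *Elovl6*, and *Gm30747* and *Gm32376* overlap *Elovl7*. Whether counting used strand is not given in the sources used here, so reads from these pairs are uncertain.

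The rest of the pathway was followed in lists counted whole, which were also chosen with earlier results of these data known. In gland over fat, 4 of the 5 tested genes of the elongation cycle were higher in the gland and 0 lower (median log2 1.57, all genes -0.02). Over all genes, 8.39% were called higher and 5.25% lower, the shares to set beside this list and those that follow. They were the dehydratase *Hacd2* (log2 3.26), the ketoacyl reductase *Hsd17b12* (3.16), the enoyl reductase *Tecr* (1.57) and *Hacd3* (1.40). Among the electron donors of desaturases 2 of 4 were higher (median 0.85), *Cyb5r3* by 1.39 and *Cyb5b* by 1.37. In fatty acid synthesis 5 of 7 were higher (median 1.54), among them the acetyl-CoA carboxylase *Acacb* by 3.90 and the acetyl-CoA synthetase *Acss2* by 2.07. Of the other desaturases and elongases, 2 of 3 tested were higher (median 1.22), *Elovl4* by 4.59 and the sphingolipid desaturase *Degs1* by 1.22. The lists of ester and wax synthesis (6 of 10 higher, median 1.39) and acyl-CoA synthetases (3 of 5 higher and 1 lower, median 2.47) share *Far2*, *Awat1*, *Awat2* and *Acsbg1* with the markers that chose the gland spots, so these genes are not independent of that choice. Outside them, the sterol acyltransferase *Soat1* was higher by 4.01, and in ceramide synthesis (4 of 9 higher, 0 lower, median 0.85) the ceramide synthase *Cers4* by 4.28 and the fatty acid transporter *Slc27a4* by 3.10.

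Fat led the gland in 2 genes of these lists. *Thrsp*, a factor that promotes lipogenesis in fat and liver, was at 115 ± 8.57 CPM in adipose spots and 6.12 ± 5.53 CPM in the gland (log2 -4.07, SE 0.33, adjusted p = 3.69e-14 in edgeR's quasi-likelihood test), and was also higher in fat than in the dermis by log2 2.69. *Acsl1*, the main acyl-CoA synthetase of fat cells, was lower in the gland by log2 -1.27 and higher in fat than in the dermis by 1.05. In the list of regulators that holds *Thrsp*, 2 of 11 were higher in the gland and 1 lower (median 0.79), against 8.39% and 5.25% of all genes. The 2 were *Mid1ip1* (1.94) and *Pparg* (1.42), at 25.5 ± 9.61 CPM in the gland and 9.89 ± 7.93 CPM in fat. Between fat and dermis *Thrsp* and *Acsl1* were the only genes of the 8 lists called higher in fat, against 1.71% of all genes, and 8 were called lower, against 7.03%. By list, the lower genes were 1 of 3 tested other desaturases and elongases and 2 of 5 acyl-CoA synthetases. They were 3 of 10 in ester and wax synthesis and 2 of 9 in ceramide synthesis, with 0 in the remaining lists. Of those 8, *Far2*, *Awat1* and *Acsbg1* are markers that chose the gland spots, and the others were *Elovl4*, *Acsl4*, *Soat1*, *Cers4* and *Slc27a4*. All of these others were also called higher in the gland than in fat. The dermis spots were not limited to a low gland score here, and the part of gland genes in these calls was not tested.

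The lists were split as follows in gland over epidermis, where 3.64% of all genes were called higher and 4.17% lower. The elongation cycle was higher in the gland for 4 of 5 tested (median 1.28) and fatty acid synthesis for 4 of 7 (median 1.73), while ceramide synthesis had 3 of 9 higher and 3 lower (median 0.46). The 3 lower were the barrier lipid genes *Abca12*, *Cers3* and *Pnpla1*. In upper follicle over epidermis, *Abca12*, *Cers3* and *Cyp4f39* were the ceramide genes called lower in the upper follicle (3 of 9, median -0.83), and 0 of 5 in the elongation cycle and 0 of 7 in fatty acid synthesis were called in either direction. Over all genes, 2.73% were called higher in that comparison and 3.67% lower. *Abca12*, *Cers3*, *Pnpla1* and *Cers2* were named after their values were seen. From outer to inner root sheath 2 of 9 ceramide genes were higher, *Cyp4f39* by 1.39 and *Pnpla1*, and 1 was lower, *Cers2* (median -0.65). Over all genes, 3.57% were called higher between the sheaths and 8.67% lower, and the 1 lower gene of 9 is near the latter share.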

How the data were processed

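Visium spatial gene expression was measured on 4 slices of mouse dorsal skin. The authors aligned and counted the reads with Space Ranger 2.0.1 (per the file headers) on mm10, and the deposited values are raw UMI counts per feature and spot. Of 6420 spots, 9 with fewer than 250 genes were removed, which left 1456 to 1751 spots per slice at a median of 11662 to 14627 UMIs. The 10 members and the gene lists were chosen with earlier results of these data known. Each spot was scored on marker lists, with 0 at the median of all spots and 1 at their 99th percentile, and was assigned to the list with the highest score if that reached 0.5 and led by 0.05. The score limits were chosen after seeing marker genes. Of 12 hair markers, 11 were used, and *Krt85* was not used here. UMIs were summed per compartment and slice, and the 36 sums were fitted together with edgeR 4.0.16 (TMM, filterByExpr, quasi-likelihood test, Benjamini-Hochberg over 11150 genes, R 4.3.3). Genes were called at an adjusted p under 0.05 and a 2-fold difference. The script was tested on simulated data. Alternatives covered DESeq2 1.42.0, Seurat 5.3.0 clusters, scaling, filters, thinning to 5500 UMIs (563 shallower spots left out), stricter and looser scores, a slice block and leaving out each slice. All members were named, with the genes of highest Pearson r to each on log2(CPM + 1), and up to 4 genes of each pathway list by their size of change in gland over fat. Slices used the same slide layout, so 1842 of 2485 barcodes occurred in several of them. Spots were not matched to mice, no doublet caller was run, and sums from the same slice share its sections: their deviations from the compartment means correlated by 0.06 to 0.17 on average.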

Additional observations from a re-analysis of the deposited data

Results flagged for a closer look

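Of 117 groups of 4 slices examined, 4 held a slice far from the other 3, and chance flags about 1 in 20 groups. *Scd1* in gland spots of slice 1 was at 5437 CPM, against 6057 to 6108 CPM in the others. *Elovl1* in upper follicle spots of slice 2 was at 136 CPM, against 151 to 153 CPM. *Elovl7* in muscle spots of slice 4 was at 39.0 CPM, against 27.6 to 28.3 CPM. The share of *Scd2* among *Scd* UMIs in epidermis spots of slice 3 was 10.5%, against 13.0% to 13.5%.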

How the results depend on the processing

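Over 16 alternative settings, the 26 calls of members gave 353 values, of which 339 kept the call, 13 lost it and 1 changed sign. Grouping by Seurat clusters, in which no cluster was led by fat markers so that gland and dermis could not be compared with fat, gave 2 members called between upper follicle and epidermis in place of 1. It turned *Scd1* to log2 -0.37, *Scd3* to -1.20, *Elovl3* to -0.62, *Elovl5* to -0.30 and *Elovl6* to -0.80 there, and *Elovl1* between gland and upper follicle to 0.38. The cluster led by hair matrix and shaft markers drew 97.8% of its spots from a single slice. The low gland score setting, chosen after seeing the data, left 1 member called between fat and dermis in place of 3, and turned *Scd3* there to 0.31, *Elovl3* to 0.24 and, between upper follicle and epidermis, *Scd1* to -0.21. With a low gland score asked of fat and dermis alike, 1 member was called between them. Thinning left 2 of 4 members called between the root sheaths. The cause of these changes was not tested, except that each rests on other spots or fewer UMIs by construction. *Elovl5* and *Elovl6* between the root sheaths passed 2-fold with library size alone, at -1.01 and -1.09. Leaving out 1 slice at a time gave 7 to 7 members called for gland over fat, 5 to 5 over upper follicle, 6 to 6 over epidermis, 3 to 3 for fat over dermis, 1 to 1 for upper follicle over epidermis and 4 to 5 between the root sheaths. With the slice as a replicate block, a pairing by shared sections, the counts were 7, 5, 6, 3, 1 and 4, and no call changed. *Fads1* and *Fads2*, at 23 UMIs each in gland spots, and *Scd3* in fat, at 48, are limited by depth.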
